A study of Mus musculus with 6 samples.

Results

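Prostaglandins are short-lived lipid signals made from arachidonic acid, a fatty acid that phospholipases free from membranes. Cyclooxygenases turn it into the common precursor PGH2, terminal synthases turn PGH2 into PGD2, PGE2 or prostacyclin, and a dehydrogenase and reductases break the products down. In the testis, the lipocalin-type PGD2 synthase Ptgds is known from Leydig and Sertoli cells, and prostaglandins are discussed as local signals between the cells outside the germ line. The 10 genes described here are the 10 enzymes of this pathway named Ptgs1, Ptgs2, Ptgds, Hpgds, Ptges, Ptges2, Ptges3, Ptgis, Hpgd and Ptgr1. They were picked by symbol from the 54100 genes of a count table by a rule that holds no measured value, though with earlier results of these data known, and each symbol matched 1 gene. In that set Ptgs1 and Ptgs2 are the cyclooxygenases, Ptgds and Hpgds make PGD2, Ptges, Ptges2 and Ptges3 make PGE2, Ptgis makes prostacyclin, and Hpgd and Ptgr1 break prostaglandins down.

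The libraries came from RNA of mouse testis cryosections, 3 from wild-type (WT) mice and 3 from H3t deletion mice, which lack a testis variant of histone H3. The labels give no age, strain or treatment, do not say how the deletion was made, and carry a code per library but nothing on pooling. The study looked at Leydig cells, which make testosterone between the tubules, where sperm formation is disrupted. Totals were 8037826 to 10702930 counts in WT and 8315960 to 8988520 in the deletion. The targeted gene, H3f4 by its current symbol, was counted 390, 571 and 356 times in WT and 0 times in each deletion library. Levels are given as CPM, a library's counts relative to its total, after TMM scaling, which sets libraries to a common level on genes that change little, and changes as log2 fold changes, deletion minus WT, from the quasi-likelihood test of edgeR, adjusted by Benjamini-Hochberg over 17038 tested genes. A gene was called at an adjusted p below 0.05.

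The make-up of these testes differed greatly between the groups, which bears on each value that follows. All 12 spermatid markers were called lower and their summed level fell from 19704 to 21285 CPM in WT to 9.72 to 60.7 CPM in the deletion, whereas all 14 Leydig markers (522.5 to 599 CPM in WT, 4214 to 4433 CPM in the deletion), all 16 Sertoli markers (1094 to 1209 and 4960 to 5033 CPM) and all 13 macrophage markers (113 to 124 and 557 to 653 CPM) were called higher with TMM scaling. Over all tested genes 38.4% were called higher and 46.1% lower. Hao2 and Thbs2 (Leydig), Fshr and Trf (Sertoli) and C1qa, Cd163, Fcgr1 and Tyrobp (macrophage) passed the filter on low counts only through the deletion libraries. Of the spermatid markers, Prm2, Spaca1 and Smcp passed it in both groups and the others only through WT. Mitochondrial genes held 5.59% to 6.44% of the counts in WT and 21.6% to 22.7% in the deletion. In such bulk tissue, more cells of a type and more RNA per cell cannot be told apart. Each member is therefore also given relative to the Leydig and the Sertoli markers, that is, with libraries scaled so that the marker list has an equal mean log2 level.

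With TMM scaling, 8 prostaglandin enzymes were higher in the deletion and 1, Ptges3, was lower. The PGD2 synthase Ptgds made the largest gain among them, about 13.2-fold. Ptgs2 was at 3 counts per group and was not tested. Across the 17038 tested genes, 38.4% were called higher and 46.1% lower, and the groups did not overlap for 85.9%. The median log2 change over the 9 tested enzymes was 2.60, against -0.19 over all tested genes. Of the 9, Ptgs1, Hpgds and Ptges passed the filter on low counts only through the deletion libraries, so they could be tested only because they were high there. Ptgds, Ptges2, Ptges3, Ptgis, Hpgd and Ptgr1 passed it in both groups.

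**Figure D1:**
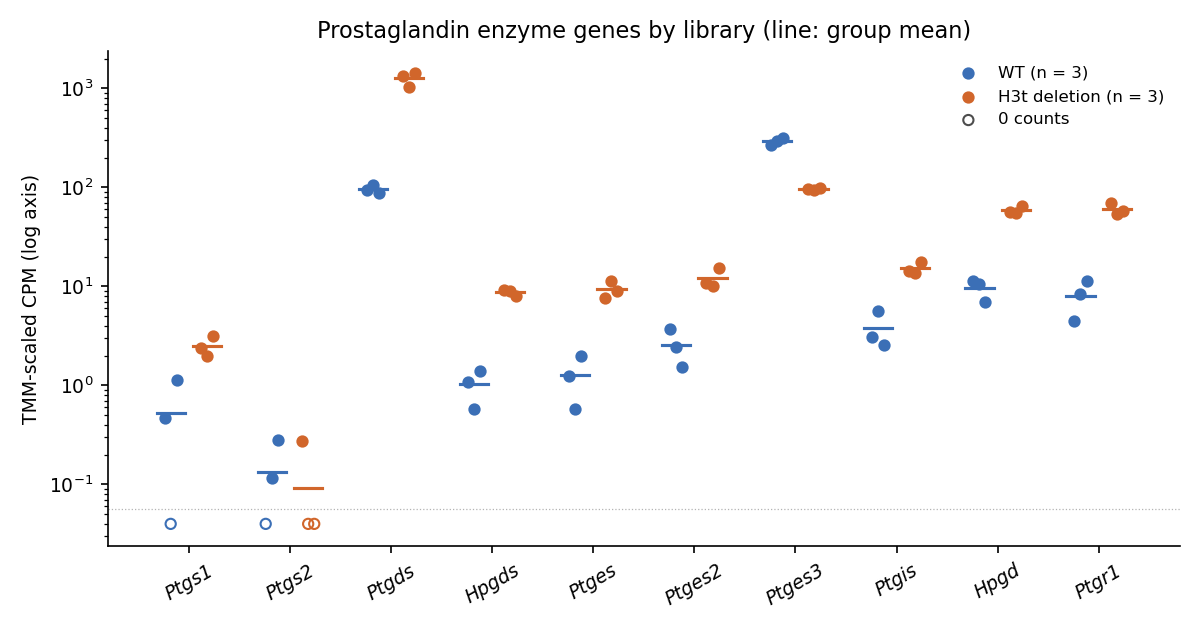
TMM-scaled CPM (log axis) of the 10 prostaglandin enzyme genes in 3 WT and 3 H3t deletion libraries. Points are libraries, lines are group means, and open points below the dotted line are libraries at 0 counts. The groups are apart for every gene but Ptgs2, and Ptges3 is the gene with WT on top.

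Per kilobase of exon the cyclooxygenases had the lowest mean levels of the set. Ptgs1 (COX-1, the form that most tissues keep on; GRCm38 chromosome 2, 36230426 to 36252272) had 3, 0 and 8 counts in the WT libraries, in the order of replicates 1, 2 and 3 used throughout, and 26, 22 and 33 in the deletion. These are 0.532 ± 0.567 CPM in WT and 2.51 ± 0.587 CPM in the deletion (n = 3, SD), and the groups did not overlap. Its log2 change was 2.27 ± 0.69 (SE, adjusted p = 0.00663 by edgeR's quasi-likelihood test), or 1.61 without WT replicate 2 and 3.49 without WT replicate 3, so its size rests on single WT libraries with few counts. A transcript on the opposite strand overlaps 148 bp of its exons, and the strand setting of the counting is not given in the sources used here. Ptgs2 (COX-2, the form that inflammation and hormones induce; chromosome 1, 150100031 to 150108227) had 0, 1 and 2 counts in WT and 3, 0 and 0 in the deletion. At this depth no difference was detectable, because 3 counts per library, the limit that 0 counts allow, were worth 0.271 to 0.467 CPM.

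Both PGD2 synthases rose. Ptgds (chromosome 2, 25466709 to 25470046), a secreted lipocalin that makes PGD2 and also carries lipophilic molecules, was at 94.6, 105.8 and 87.0 CPM in WT and at 1346, 1041 and 1424 CPM in the deletion. The lowest deletion library lay far above the highest WT library. Its log2 change was 3.73 ± 0.13 (SE, adjusted p = 3.84e-13, edgeR), and 212 of the 17038 tested genes (1.24%) had a larger one. In WT 2782 genes of the table had a higher mean CPM than Ptgds, and in the deletion 17 did. Hpgds (chromosome 6, 65117293 to 65144908), the glutathione-dependent PGD2 synthase of macrophages and mast cells, was at 1.09, 0.581 and 1.41 CPM in WT and at 9.30, 8.95 and 8.10 CPM in the deletion, on 5 to 10 counts per WT library. Its log2 change was 3.11 ± 0.37 (SE, adjusted p = 1.2e-06, edgeR), again with no overlap between the groups.

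The ratio of the 2 PGD2 synthases within a library, which holds no scaling factor, did not separate the groups. On the log2 scale Ptgds counts exceeded Hpgds counts by 6.34, 7.37 and 5.88 in WT and by 7.17, 6.85 and 7.45 in the deletion, and the difference of 0.63 gave p = 0.3 in an exact two-sided permutation test (0.619 adjusted over 33 within-library ratios). With 3 libraries per group the smallest p of such a test is 0.1, so none of them can pass 0.05.

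Markers of the cell types known for these enzymes moved as follows. Hpgds stood to the 13 macrophage markers at log2 ratios of -1.54, -2.58 and -1.18 in WT and -1.56, -1.15 and -1.35 in the deletion, so the ranges overlapped. Of 9 mast cell markers, the defining receptor genes Fcer1a and Ms4a2 were at 0 counts in all 6 libraries, Cpa3 had at most 2 counts in any library, and the list summed to 11.8 to 12.9 CPM in WT and 25.9 to 33.8 CPM in the deletion, nearly all of it Hdc, which was the only tested member and was called higher. Ptgds is also abundant in epididymis. Of 12 markers of epididymis and efferent ducts, 7 were at 0 counts in every library, among them Lcn5, Lcn8, Lcn9 and Crisp1. The list summed to 131 to 163 CPM in WT and 1018 to 1335 CPM in the deletion, and Lcn2, a lipocalin that many inflamed tissues make and that is no defining marker of the epididymis, held 139.9 and 1210 of the mean CPM. The other tested gene of the list, Rnase10, went the opposite way, with 11, 25 and 23 counts in WT and 0 in each deletion library, so 1 gene was called higher and 1 lower. The part of these cells in the changes of Ptgds and Hpgds was not tested.

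The PGE2 synthases split. Ptges (chromosome 2, 30889471 to 30929863), the inducible microsomal form that works with COX-2, was at 1.25, 0.581 and 1.97 CPM in WT and 7.74, 11.3 and 9.06 CPM in the deletion. Ptges2 (chromosome 2, 32395896 to 32405772), a membrane-associated form, was at 3.74, 2.44 and 1.55 CPM in WT and 10.8, 10.2 and 15.5 CPM in the deletion. Both rose, with log2 changes of 2.91 ± 0.39 and 2.25 ± 0.32 (SE, adjusted p = 4.85e-06 and 1e-05, edgeR), and for neither did the groups overlap. Ptges3 (chromosome 10, 128058954 to 128077272), the cytosolic form that is better known as the HSP90 co-chaperone p23, went the other way. It was at 270, 297 and 316 CPM in WT and at 97.4, 95.2 and 98.5 CPM in the deletion, a 3.03-fold fall with a log2 change of -1.60 ± 0.09 (SE, adjusted p = 1.22e-10, edgeR). Of its 50-mers, 19.6% also occur in transcripts of other genes, so part of its reads may not have been placed uniquely.

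Ptges3 stayed above Ptges2 in counts in every library, by less in the deletion. The log2 ratio of Ptges3 to Ptges2 was 6.15, 6.89 and 7.61 in WT and 3.17, 3.21 and 2.66 in the deletion, a difference of -3.87 with no overlap (exact permutation p = 0.1, the smallest possible, 0.33 adjusted over the 33 ratios). The log2 ratio of Ptges to Ptges2 was -1.05 ± 1.22 in WT and -0.37 ± 0.47 in the deletion (n = 3, SD), and the groups overlapped (exact permutation p = 0.5).

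Sequences upstream of the RefSeq start sites are shown for Ptgds, the gene that rose most, and for Ptges3, the one that fell. Their windows hold the fewest and the most CpG dinucleotides of the set. They are the parts of the 250 bases upstream of the RefSeq start (GRCm38.p6) that lie outside annotated exons, written 5′ to 3′ on the gene's strand, with CpG dinucleotides in capitals. The Ptgds stretch is chr2:25469843-25469999 on the minus strand and the Ptges3 stretch is chr10:128058732-128058953 on the plus strand. The full Ptgds window runs from 25469750 to 25469999, so its part next to the RefSeq start is not shown. The annotated Ptgds gene reaches to 25470046, so the stretch lies within the gene, between its annotated ends.
Ptgds: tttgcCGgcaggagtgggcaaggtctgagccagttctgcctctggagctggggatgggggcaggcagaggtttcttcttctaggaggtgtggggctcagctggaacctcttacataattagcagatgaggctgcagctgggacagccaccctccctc
Ptges3: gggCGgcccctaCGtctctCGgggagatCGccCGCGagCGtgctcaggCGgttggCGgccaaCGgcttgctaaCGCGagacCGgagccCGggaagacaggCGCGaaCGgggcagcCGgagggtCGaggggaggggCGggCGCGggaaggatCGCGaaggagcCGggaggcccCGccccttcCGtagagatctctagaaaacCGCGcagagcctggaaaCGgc

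The full 250-base window of Ptgds held 2 CpGs and that of Ptges3 held 38. Among 32851 windows of this length 18.8% had fewer than the Ptgds window and 98.1% fewer than the Ptges3 window. The other enzymes lay between them, with 3 CpGs for Hpgds, 5 each for Ptgs1 and Ptgr1, 8 for Ptges, 9 for Hpgd, 13 for Ptgs2 and 15 for Ptges2. Ptgis had no window in the table. The windows of Ptgds and Ptges lay wholly within the annotated span of their genes. On either strand, the GC box GGGCGG, a site of SP1-type factors, occurred in 5 of the 9 windows (Hpgd, Ptges, Ptges3, Ptgr1 and Ptgs2) and in 32.7% of all windows. The CCAAT box CCAAT occurred in that of Ptgr1 and in 33.8% of all. The letters AAGGTCA, part of the site of the steroidogenic factor NR5A1, occurred in 0 of the 9 and in 4.08% of all windows, and the cAMP response element TGACGTCA in 0 of the 9 and in 1.55%.

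Prostacyclin synthase rose least of the enzymes that were called higher. Ptgis (chromosome 2, 167191805 to 167240604), an endoplasmic reticulum enzyme of vessel walls and mesenchyme, was at 3.11, 5.70 and 2.54 CPM in WT and at 14.5, 13.6 and 17.8 CPM in the deletion. Its log2 change was 1.98 ± 0.28 (SE, adjusted p = 9.85e-06, edgeR) and the groups did not overlap. Transcripts on the opposite strand overlap 156 bp of its exons. Of 10 endothelial markers 6 were called higher with TMM scaling and 4 were not called, with a median log2 change of 1.28. Of 8 markers of peritubular myoid cells and smooth muscle 6 were called higher and 1 lower, with a median of 1.21. Of 9 markers of interstitial mesenchyme 6 were called higher and 1 lower, with a median of 1.36. Over all tested genes 38.4% were called higher and 46.1% lower. The part of endothelial, smooth muscle and mesenchymal cells in the change of Ptgis was not tested.

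Both breakdown enzymes rose. Hpgd (chromosome 8, 56294585 to 56321043), the dehydrogenase that takes the first step in inactivating prostaglandins, was at 11.4, 10.6 and 7.05 CPM in WT and at 56.5, 54.6 and 64.5 CPM in the deletion. Ptgr1 (chromosome 4, 58965439 to 58987119), a reductase that takes the next step and also inactivates leukotriene B4, was at 4.51, 8.37 and 11.3 CPM in WT and at 69.6, 54.4 and 57.3 CPM in the deletion. The log2 changes were 2.60 ± 0.17 and 2.89 ± 0.22 (SE, adjusted p = 9.69e-10 and 5.95e-09, edgeR), and the groups were apart for each. The WT libraries ranked in opposite order for the pair, with WT replicate 1 highest for Hpgd and lowest for Ptgr1. The log2 ratio of Hpgd to Ptgr1 within a library was 0.33 ± 0.99 in WT and -0.04 ± 0.24 in the deletion (n = 3, SD, exact permutation p = 0.7).

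Per kilobase of exon, the set was led by Ptges3 in WT and by Ptgds in the deletion. In WT Ptges3 was at 133 ± 10.3 and Ptgds at 58.1 ± 5.74 CPM per kb (n = 3, SD), with no overlap. Hpgd, Ptgr1 and Ptgis followed at means of 5.74, 3.51 and 1.47 CPM per kb. Ptgr1 overlapped both Hpgd and Ptgis, and Ptgis did not overlap Ptges2, the next gene. Ptges2, Ptges, Hpgds, Ptgs1 and Ptgs2 came last at 0.509, 0.322, 0.160, 0.137 and 0.0290 CPM per kb, and among these each overlapped the next. In the deletion the order was the same but for the first 2 places. Ptgds stood at 770 ± 123 and Ptges3 at 43.8 ± 0.749 CPM per kb, and Hpgd, Ptgr1 and Ptgis at 34.8, 26.3 and 5.95. Ptges2 and Ptges, at 2.41 and 2.38, were the only neighbours whose libraries overlapped. Hpgds, Ptgs1 and Ptgs2 were at 1.37, 0.646 and 0.0201 CPM per kb.

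The share that each enzyme took of the summed level per kilobase holds no scaling factor. Ptges3 took 64.0%, 63.5% and 68.9% in WT and 4.70%, 5.79% and 4.51% in the deletion. Ptgds took 30.1%, 30.4% and 25.5% in WT and 87.2%, 85.0% and 87.6% in the deletion. The other enzymes stayed small in both groups, with Hpgd at 2.85% ± 0.766 and 3.95% ± 0.398 and Ptgr1 at 1.71% ± 0.673 and 2.99% ± 0.395 (n = 3, SD). Taking the longest coding transcript of each gene as its length, a choice made after seeing the data, put Ptgds at 40.0% in WT and 91.7% in the deletion and set Ptges and Hpgds ahead of Ptges2 in the deletion, at 2.57, 2.53 and 2.45 CPM per kb.

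**Figure D2:**
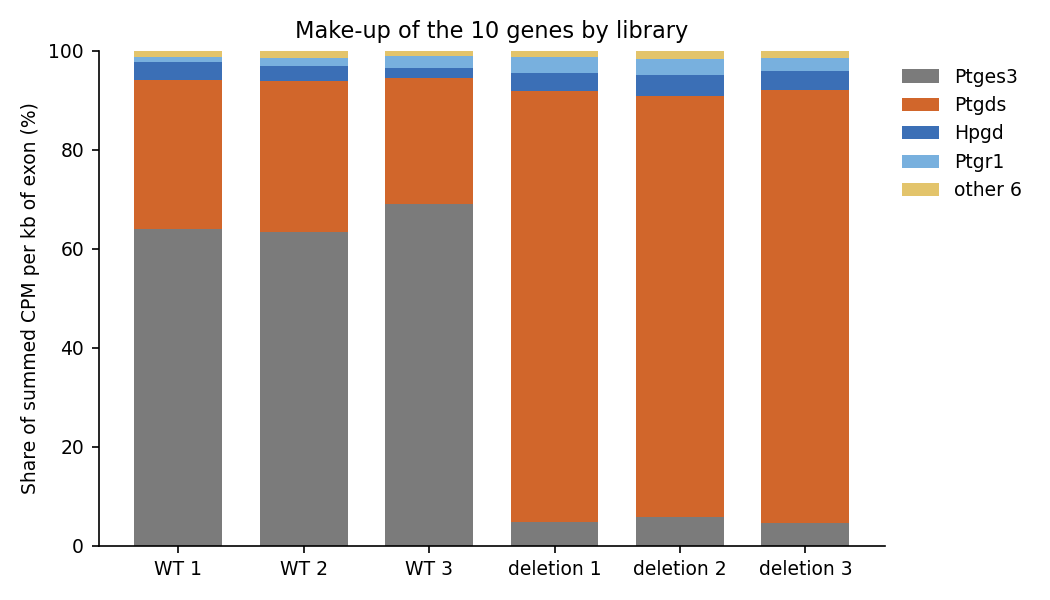
Share (percent) of each enzyme in the summed CPM per kb of exon of the 10 genes, by library, with the 6 least abundant genes joined. Ptges3 fills 63.5% to 68.9% of the WT bars and 4.51% to 5.79% of the deletion bars, and Ptgds fills 85.0% to 87.6% of the deletion bars.

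Relative to Leydig cell markers, Ptgds alone among the 9 tested enzymes remained called higher. With libraries scaled to an equal mean level of the 14 Leydig markers, such as Star, Cyp17a1 and Hsd17b3, its log2 change was 1.03 ± 0.18 (SE, adjusted p = 6.6e-06, edgeR). With that scaling 5 of the 14 Leydig markers were themselves called higher and 3 lower, so a higher call was not particular to Ptgds. Under TMM scaling the log2 changes of these markers ran from 1.12 to 3.77, against 3.73 for Ptgds. The log2 ratio of Ptgds to that list was 2.23, 2.64 and 2.02 in WT and 3.47, 3.08 and 3.47 in the deletion, with no overlap (exact permutation p = 0.1). Ptges3 was at -4.28 ± 0.19 and Ptgis at -0.72 ± 0.34 (SE), both called lower, Ptgis at an adjusted p of 0.0483 (edgeR). Hpgds, Ptges, Ptgr1, Hpgd, Ptgs1 and Ptges2 were at 0.46, 0.26, 0.22, -0.10, -0.34 and -0.44 and were not called, with standard errors of 0.23 to 0.71 that leave sizeable changes in either direction possible for the rarer ones.

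Relative to Sertoli cell markers, the cells that nurse germ cells within the tubule, Ptgds and Ptgr1 were called higher. With the 16 Sertoli markers set to an equal level, their log2 changes were 1.56 ± 0.17 and 0.75 ± 0.24 (SE, adjusted p = 2.27e-08 and 0.00659, edgeR). With that scaling 2 of the 16 Sertoli markers were themselves called higher and 3 lower, so a higher call was not particular to these enzymes. Under TMM scaling the log2 changes of these markers ran from 1.05 to 3.97, against 3.73 for Ptgds and 2.89 for Ptgr1. The top marker was Trf, on 0, 3 and 1 counts in WT, and the next was Sox9 at 2.56. Ptges3 was at -3.77 ± 0.16 and called lower. Hpgds, Ptges, Hpgd, Ptgs1, Ptges2 and Ptgis, at 0.95, 0.74, 0.43, 0.13, 0.08 and -0.15, were not called, Hpgds at an adjusted p of 0.0556 (edgeR). Relative to the macrophage markers, the log2 ratio of Ptgds was 4.80, 4.79 and 4.69 in WT and 5.61, 5.70 and 6.10 in the deletion. The mean ratio of Ptgds was thus higher in the deletion by 1.04 on the log2 scale against the macrophage and the Leydig list. Against the Sertoli list it was higher by 1.55. The groups did not overlap for any of these lists, each at an exact permutation p of 0.1 (0.33 adjusted over the 33 ratios). Against the median instead of the mean of the macrophage list the difference was 1.45.

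**Figure D3:**
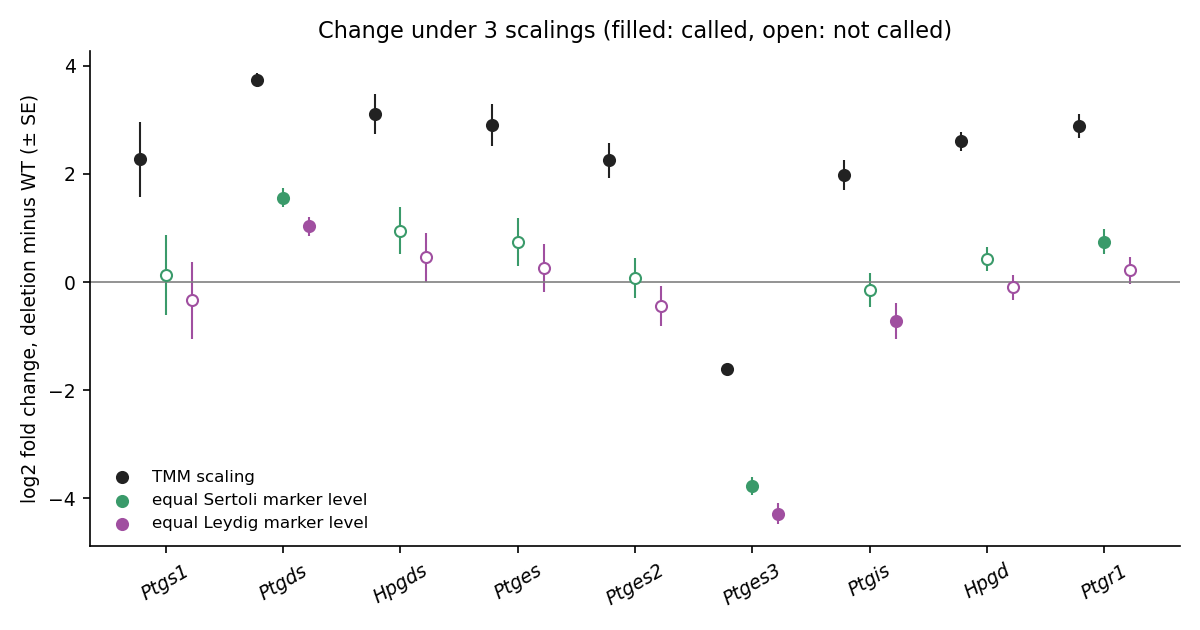
Log2 fold change (deletion minus WT, with SE) of the 9 tested enzymes under TMM scaling and with libraries at an equal level of Sertoli or Leydig markers. Filled points passed an adjusted p of 0.05 and open points did not. Ptgds is filled above 0 and Ptges3 filled below 0 under all 3 scalings.

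The genes most like an enzyme in pattern were found for the 4 enzymes with a mean of at least 10 CPM, by the root mean square distance of centred log2 CPM over the 6 libraries among 10098 other genes. For Ptgds they were Plod2, Scd1, Mdfic, Apoc1 and Lhcgr, the last being the luteinizing hormone receptor of Leydig cells, at distances of 0.14 to 0.19. For Hpgd they were Fosl2, Eci2, Tfpi, Rcan2 and Kank2 (0.07 to 0.10), for Ptgr1 Armcx2, Ifnar2, Tmem63b, Klf6 and Dhcr7 (0.11 to 0.16), and for Ptges3 Tollip, Kctd9, Tpp2, Gnpda2 and Nsun2 (0.04 to 0.05). These distances rest mainly on the difference between the groups.

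The other genes of the pathway were taken from lists that follow its steps. Of 19 phospholipase A2 genes, which free arachidonic acid, 10 were tested. With TMM scaling 5 were called higher and 4 lower, against 38.4% and 46.1% of all tested genes. Their median log2 change was 0.52. Pla2g2d and Pla2g15 passed the filter on low counts only through the deletion libraries and Pla2g4d and Pla2g10 only through WT. These 4 could thus be tested only because they were high in that group. At equal Leydig level 0 of the 10 were called higher and 6 lower (median -2.16), and at equal Sertoli level 2 and 6 (median -1.64). Over all 17038 tested genes 185 were called higher and 14318 lower at equal Leydig level (median -2.87). At equal Sertoli level they were 656 and 13006 (median -2.36). The counts of the lists below stand against the same background. Pla2g4a, the cytosolic enzyme that most often feeds cyclooxygenases, went from 3.79 ± 0.372 to 25.0 ± 1.73 CPM (n = 3, SD), and its log2 change of 2.73 became 0.05 at equal Leydig and 0.56 at equal Sertoli level, neither called. Plaat3, Pla2g2d and Pla2g15 rose by 2.92, 3.95 and 2.78 with TMM scaling, and were at 0.24, 1.30 and 0.12 at equal Leydig level, none of them called. At equal Sertoli level Plaat3 (0.77) and Pla2g2d (1.83) were called and Pla2g15 (0.64) was not. Pla2g5, a secreted form, rose by 1.45 with TMM scaling and was called lower at equal Leydig (-1.23) and Sertoli level (-0.71). Pla2g6, a calcium-independent form, fell from 182 ± 8.18 to 23.9 ± 3.87 CPM (n = 3, SD), and Pla2g10 and Pla2g4d fell with it, at log2 changes of -7.59 and -3.38. Pla2g10 had 1 count in the deletion libraries together, in deletion replicate 1, without which its value was -9.22. Pla2g12a, at -0.40, was no longer called without WT replicate 2 (-0.30) or deletion replicate 1 (-0.33) or 2 (-0.38), and lay above 0 with upper-quartile or no scaling. Pla2g3, at -0.91, was not called, but was called lower without deletion replicate 1 (-1.49).

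Among 12 further synthases and reductases, 9 were tested and 7 were called higher with TMM scaling, against 38.4% of all tested genes. Of these 7, Tbxas1, Cbr2, Cbr3 and Akr1c14 passed the filter only through the deletion libraries, so they could be tested only because they were high there. Zadh2, Akr1b3 and Akr1b8 passed it in both groups. The thromboxane synthase Tbxas1 had 3, 1 and 0 counts in WT and 46, 32 and 26 in the deletion, at a log2 change of 4.04 ± 0.70 (SE, adjusted p = 7.14e-05, edgeR), or 5.36 without WT replicate 1. Zadh2, also known as prostaglandin reductase 3, went from 10.9 ± 0.822 to 49.2 ± 1.5 CPM, and the aldo-keto reductases Akr1b8 and Akr1b3, the latter able to make PGF2α, from 53.3 ± 5.57 to 246 ± 23.6 CPM and from 19.7 ± 3.54 to 48.6 ± 7.48 CPM (n = 3, SD). Cbr2, Akr1c14 and Cbr3 were at 2.68, 1.75 and 1.62, Cbr3 no longer called without deletion replicate 2 (1.35, adjusted p = 0.0517, edgeR). Ptgr2, a relative of Ptgr1, and the carbonyl reductase Cbr1 were at 0.26 and -0.12 and were not called with TMM scaling. Both were called higher with upper-quartile (0.80 and 0.43) and no scaling (0.90 and 0.52), and both lower at equal Leydig (-2.43 and -2.80) and Sertoli level (-1.91 and -2.30). At equal Leydig level 0 of these 9 genes were called higher and 5 lower, and at equal Sertoli level 1 and 3. Their medians were -0.94 and -0.38, against -2.87 and -2.36 over all tested genes.

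Receptors were scarcely counted. Of 10 genes of the receptor list, 9 encode prostanoid receptors and none of them passed the filter on low counts, which left only Ptgfrn, a partner of the PGF2α receptor. The PGD2 receptors Ptgdr and Ptgdr2 had 3, 3 and 3 and 5, 6 and 1 counts in WT and 0, 0 and 0 and 0, 0 and 1 in the deletion. The PGE2 receptors Ptger1 and Ptger4 had at most 17 counts in any library and the thromboxane receptor Tbxa2r had 0 in each WT library and 4, 4 and 8 in the deletion. Ptgfrn rose from 3.81 ± 1.67 to 8.10 ± 1.46 CPM (n = 3, SD), a log2 change of 1.07 that was -1.64 and -1.07 at equal Leydig and Sertoli level. Of 6 transporters 4 were tested. Slco2b1 and the exporter Abcc4 rose by 2.45 and 1.70 with TMM scaling, and the prostaglandin transporter Slco2a1 by 1.04. The call of Slco2a1 was lost without WT replicate 2 (0.83) or deletion replicate 3 (0.77). It was also lost with DESeq2 (0.89, adjusted p = 0.0541 by DESeq2) and at an FDR of 0.01. Slco3a1 was at -0.25 and not called, and its call went both ways. It was called lower without WT replicate 1 (-0.32) or deletion replicate 1 (-0.39), with median-of-ratios scaling (-0.43) and by DESeq2 (-0.41), and higher with upper-quartile (0.29) and no scaling (0.39). At equal Leydig level 0 transporters were called higher and 3 lower, with a median of -1.32 against -2.87 over all tested genes.

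The sister branch leads to leukotrienes. Of 17 lipoxygenase and leukotriene genes 9 were tested and 8 were called higher with TMM scaling, against 38.4% of all tested genes. The median over the 9 was 1.45 with TMM scaling, -1.20 at equal Leydig and -0.72 at equal Sertoli level. Over all tested genes the medians were -0.19, -2.87 and -2.36. Of the 8, Alox5, Alox5ap, Cysltr1, Ephx2 and Ggt5 passed the filter only through the deletion libraries, so they could be tested only because they were high there. Lta4h, Alox12 and Dpep1 passed it in both groups. At equal Leydig level 0 of the 9 were called higher and 5 lower, and at equal Sertoli level 0 and 3. The 5-lipoxygenase Alox5 and its partner Alox5ap, both known from myeloid cells, were at 1.45 and 2.90, the epoxide hydrolase Ephx2 at 2.56 and Lta4h, which makes leukotriene B4, at 0.68. Alox12, Ggt5 and Dpep1 were at 1.15, 2.18 and 1.4, Dpep1 at 2.08 without WT replicate 2. The leukotriene receptor Cysltr1, at 2.15 on 1 to 7 counts per WT library, was no longer called without WT replicate 2 (1.61) or 3 (1.85), and was at 3.33 without WT replicate 1. Aloxe3, which also passed the filter only through the deletion libraries, was at 0.44 and was not called.

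**Figure D4:**
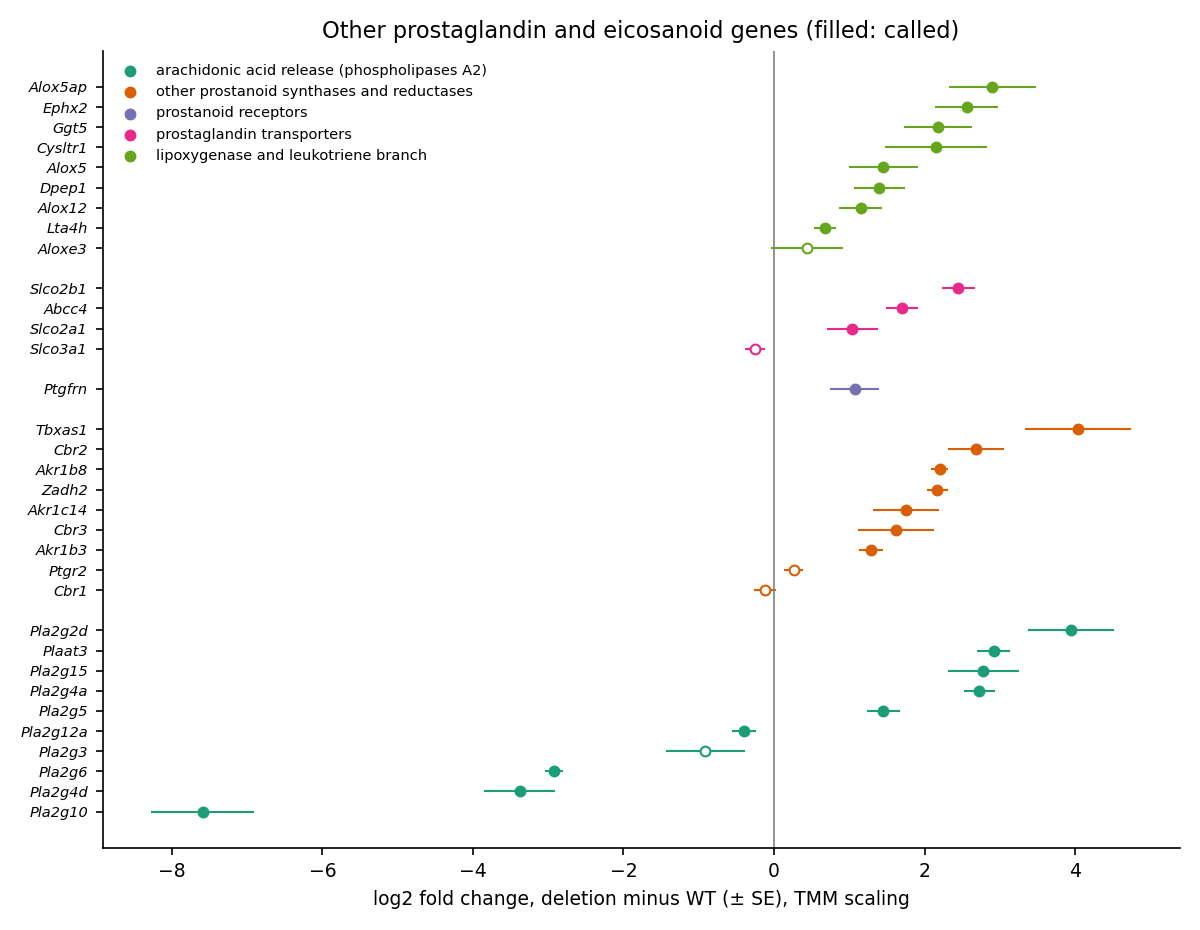
Log2 fold change (deletion minus WT, with SE, TMM scaling) of the tested genes of 5 lists around the prostaglandin enzymes. Filled points passed an adjusted p of 0.05. Pla2g10, Pla2g4d and Pla2g6 are the genes farthest below 0, and Tbxas1 and Pla2g2d the ones farthest above it.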

How the data were processed

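Bulk RNA-seq libraries came from testis cryosections (total RNA, SMART-Seq Stranded kit), per the labels' protocols. The authors deposited raw counts of reads per Ensembl gene. The submitters' processing notes name Trim Galore, HISAT2, featureCounts and GRCm38. The sources used here do not give their versions, the annotation release or the strand setting. All 54100 genes are in GENCODE M21 on the same chromosome, and loci, exon lengths and shared 50-mers come from it. Promoter windows come from RefSeq (GRCm38.p6), with 9 of 10 enzymes matched by symbol.

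The tests ran under R 4.3.3 in edgeR 4.0.16 (filterByExpr, TMM, quasi-likelihood test, Benjamini-Hochberg), with DESeq2 1.42.0 and limma 3.58.1 voom as alternatives. The SE is the log2 change divided by the square root of the F statistic. Total counts were 8037826 to 10702930 per library, and 1 count was worth 0.0904 to 0.156 CPM. Limits from counts cover counting error only. Within-library ratios used a prior count of 0.5 and exact two-sided permutation tests over 33 ratios. No 2 libraries of a group agreed within sampling noise (chi-square per degree of freedom 4.48 to 6.88). The labels do not state that each library is from a different mouse, so the tests gauge spread among libraries, and some of it may be technical. The edgeR step was tested on simulated data and the permutation step on small sets of made-up values. The enzymes and lists were chosen with earlier results of these data known. The rule names all 10 enzymes and all tested genes of the pathway lists, the most alike genes, and markers by count, sum and defining genes at 0. Lcn2, Rnase10, Cpa3, Hdc and the markers listed by how they passed the filter were named after their values were seen. Alternatives were other scalings, filters, tests and thresholds, and each library left out in turn.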

Additional observations from a re-analysis of the deposited data

How the results depend on the processing

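The counts of 8 enzymes called higher and 1 lower were the same under median-of-ratios, upper-quartile and no scaling, both other filters, DESeq2, voom, an FDR of 0.01, a test against a 1.5-fold change and without each library in turn. At equal Leydig level 1 enzyme was called higher and 2 lower, and at equal Sertoli level 2 were called higher. Over all genes 185 were then higher and 14318 lower (Leydig) or 656 and 13006 (Sertoli), against 6542 and 7861 with TMM, since these scalings shift all genes together. The median log2 change over tested genes was -2.87 (Leydig), -2.36 (Sertoli), -0.36 (median-of-ratios), -0.19 (TMM), 0.35 (upper quartile) and 0.45 (unscaled). Higher calls were 1.28%, 4.80%, 42.3%, 45.4%, 55.1% and 56.6% of all calls in that order. Without 1 library they numbered 6356 to 6591 higher and 7899 to 8287 lower.

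Signs turned at equal Leydig level for Ptgs1 (-0.34), Ptges2 (-0.44), Ptgis (-0.72), Hpgd (-0.10), Pla2g5 (-1.23), Ptgr2 (-2.43), Zadh2 (-0.51), Cbr3 (-1.03), Akr1b3 (-1.39), Akr1b8 (-0.49), Akr1c14 (-0.94), Ptgfrn (-1.64), Slco2a1 (-1.63), Slco2b1 (-0.22), Abcc4 (-1.0), Alox5 (-1.20), Lta4h (-2.02), Alox12 (-1.54), Aloxe3 (-2.22), Cysltr1 (-0.48), Ephx2 (-0.11), Ggt5 (-0.50) and Dpep1 (-1.31). They turned at equal Sertoli level for Ptgis (-0.15), Pla2g5 (-0.71), Ptgr2 (-1.91), Cbr3 (-0.53), Akr1b3 (-0.86), Akr1c14 (-0.38), Ptgfrn (-1.07), Slco2a1 (-1.14), Abcc4 (-0.45), Alox5 (-0.73), Lta4h (-1.47), Alox12 (-1.0), Aloxe3 (-1.70), Cysltr1 (0.00) and Dpep1 (-0.72). With upper-quartile and no scaling Pla2g12a was at 0.14 and 0.24, not called, and Cbr1 (0.43 and 0.52) and Slco3a1 (0.29 and 0.39) were called higher. Of the enzymes' values under alternatives 140 kept direction and call, 8 lost the call and 5 turned. With the longest coding transcript as length, Ptgds took 40.0% (WT) and 91.7% (deletion) and Ptges3 55.4% and 3.21% of the summed level, against 28.7%, 86.6%, 65.5% and 5.0%. Of the ratios' alternative values 255 stayed within the spread between libraries and 3, all against the median of the macrophage list, did not. These were Ptgds (1.45 against 1.04), Ptges3 (-3.87 against -4.28) and Hpgd, whose sign turned (0.35 against -0.07). Depth limits Ptgs1, Ptgs2 and the receptors. No paired analysis was possible because the labels give the groups no shared replicate numbers.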

Other observations

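Within the deletion group, 2 secreted or lysosomal phospholipases were uneven, in the same library. Pla2g2d had 130, 54 and 49 counts in deletion replicates 1, 2 and 3 and 4, 5 and 1 in WT, and Pla2g15, which works in lysosomes, had 174, 64 and 57 against 9, 11 and 9. Without deletion replicate 1 the log2 change of Pla2g15 went from 2.78 to 2.09. An excess in this library was not particular to phospholipases. In deletion replicates 1, 2 and 3, Ephx2 had 209, 105 and 131 counts, the macrophage marker Fcgr1 53, 13 and 27, and the spermatid marker Prm2 268, 82 and 24. The phospholipases Pla2g5 (159, 174 and 131) and Pla2g4a (291, 275 and 245) did not show it. The PGD2 synthase Hpgds, at 101, 99 and 85 counts, was not uneven in this way.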
